A study of Homo sapiens with 50 samples.

Results

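FGFBP1 encodes fibroblast growth factor binding protein 1, and the array carries 1 probe set annotated to it (gene ID 9982), among 18239 genes measured under a single symbol. The gene was chosen by its measured log2 signal, for the largest fall under compound 16 relative to DMSO, so every compound 16 minus DMSO value of FGFBP1 below is a description with its standard error and no test. The cells were A549, an established human lung adenocarcinoma line, measured as total RNA on 50 Affymetrix HG-U219 arrays in 17 groups. In 4 groups cells received 1 uM compound 16 in basal medium with non-essential amino acids and no serine, and were collected 0, 1.5, 6 or 24 h after the addition; 4 matching groups received DMSO in that medium. Another 4 groups received 1 uM compound 16 and 4 received DMSO in the same medium with serine, at the same times. All these cells had been moved from RPMI medium 24 h before the addition, and the last group was taken from RPMI before that move. Each group held 3 arrays, except DMSO with serine at 1.5 h, which held 2. By the title of the series, compound 16 activates PKM, a pyruvate kinase that makes the end product of glycolysis, and the cells come to need serine from outside.

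FGFBP1 is a secreted carrier protein. Fibroblast growth factors such as FGF2 are held on heparan sulfate proteoglycans of the cell surface and matrix, where they are not free to reach their receptors; FGFBP1 binds them reversibly and carries them off this store, which raises the supply of active ligand. Released FGF acts on receptor tyrosine kinases that signal through the ERK pathway, and feedback genes of the Sprouty, SPRED, DUSP and ETV families report that signal. FGFBP1 is known from epithelia and squamous carcinomas, where its transcription has been described as responsive to EGF and phorbol ester through AP-1 and C/EBP factors.

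The gene lies on the minus strand of chromosome 4, at positions 15935577 to 15938740 of GRCh38.p14 by the RefSeq gene table. The 250 bases before its annotated start are given because C/EBP and AP-1 factors, whose own transcripts are described further on, are reported regulators. They span chr4:15938741-15938990 and are printed 5′ to 3′ on the gene's strand from RefSeq, with the only motif match in capitals.
FGFBP1 upstream: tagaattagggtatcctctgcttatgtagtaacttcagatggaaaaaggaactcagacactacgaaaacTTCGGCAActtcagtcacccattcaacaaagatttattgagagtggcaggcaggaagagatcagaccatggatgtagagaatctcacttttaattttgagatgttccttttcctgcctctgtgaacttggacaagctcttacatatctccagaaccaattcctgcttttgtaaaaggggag
On both strands, this window held 1 match to the C/EBP motif TTGCNNAA, on the opposite strand from base -181, which 9.05% of 35116 RefSeq promoter windows of the same length also held. The AP-1 motif TGANTCA (6.57% of windows), the C/EBP-ATF composite TGATGNAA (3.14%), the E-box CACGTG (6.34%), the Sp1 motif GGGCGG (42.6%), the SREBP motif TCACNCCAC (0.883%), the TEAD motif GGAATG (11.9%) and the TATA motif TATAAA (10.7%) had 0 matches in these letters. The window had a GC content of 40.8%, against a median of 58% over all windows.

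The data are log2 RMA signals, in which a difference of 1 means a doubling of signal. All 8 epithelial and A549 markers (EPCAM, KRT7, KRT8, KRT18, KRT19, CDH1, AKR1B10 and NQO1) lay above the array median in all 50 arrays, and of 9 measured markers of blood, endothelial, fibroblast, muscle and liver cells 7 lay below it in all 50 arrays. The exceptions were DES, a muscle marker, at 4.63 to 5.62, and CD14, a monocyte marker, at 4.72 to 6.99. In these bulk samples, fewer cells with the transcript and less transcript per cell cannot be told apart. Nothing in the labels ties the arrays of a group to separate cultures, and p-values here reflect array-to-array spread that may be technical. Arrays of a group are given in the order of their title numbers.

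At 24 h without serine, FGFBP1 was at its lowest level of the whole series. The 3 compound 16 arrays read 5.43, 5.33 and 5.67, against 7.62, 7.50 and 7.66 in the 3 DMSO arrays. The groups lay far apart, with no overlap, and the array-to-array SD was 0.17 under compound 16 and 0.09 in DMSO. The difference was -2.12 ± 0.16 (SE), a 4.34-fold lower signal under compound 16. This put FGFBP1 first of 18239 genes by the size of the fall, ahead of NR4A1, an early-response nuclear receptor, at -1.31 ± 0.10, ALDOC, an aldolase, at -1.19 ± 0.16, TMSB15A, a thymosin, at -1.18 ± 0.24 and MGAM, a maltase-glucoamylase, at -1.17 ± 0.16. The compound 16 signals lay close to their array medians of 5.41 to 5.45, and RMA compresses changes among dim signals, so the fold may be understated. The mean of the 9 markers of other cell types was 4.38 to 4.60 in these compound 16 arrays and 4.70 to 4.73 in the DMSO arrays, with CD14 at a mean of 5.25 and 6.02. The part of these markers in the FGFBP1 result was not tested.

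**Figure D1:**
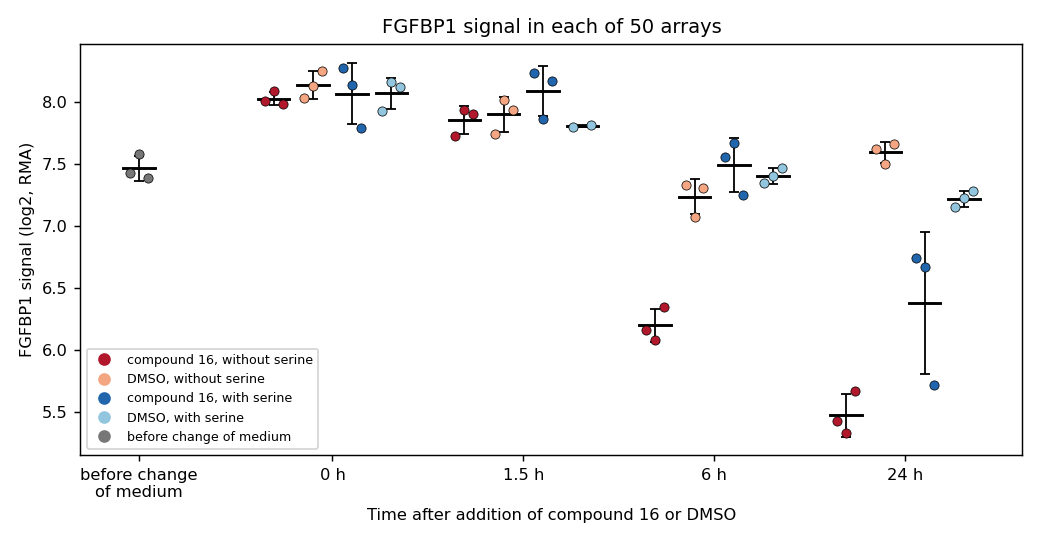
FGFBP1 signal (log2 RMA, y axis) in each of 50 arrays by time after addition (x axis), with the group mean as a bar and the SD as whiskers; colours give compound 16 and DMSO without and with serine, and grey the cells before the change of medium. The compound 16 arrays without serine lie at 6.08 to 6.35 at 6 h and 5.33 to 5.67 at 24 h, below every DMSO array of the series.

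The earlier times without serine show when this gap opened. At 6 h FGFBP1 read 6.16, 6.08 and 6.35 under compound 16, against 7.33, 7.07 and 7.31 in DMSO. These groups did not overlap either, and the difference was -1.04 ± 0.16, a 2.06-fold lower signal and the third largest fall among all genes at that time. At 1.5 h the arrays read 7.72, 7.94 and 7.90 under compound 16 and 7.74, 8.02 and 7.94 in DMSO, and at 0 h they read 8.01, 8.09 and 7.98 against 8.03, 8.13 and 8.25. At both of these times the groups overlapped, with differences of -0.04 ± 0.16 at 1.5 h and -0.11 ± 0.16 at 0 h. Within the compound 16 arm without serine, the group mean was 8.03 at 0 h, 7.86 at 1.5 h, 6.20 at 6 h and 5.47 at 24 h. The last of these lay -2.55 ± 0.16 from the first, and 24 h lay -0.72 ± 0.16 from 6 h. In DMSO without serine the means were 8.14, 7.90, 7.24 and 7.59 at the same times, so 24 h there stood at 0.36 ± 0.16 above 6 h, while the compound 16 arm stood lower at 24 h than at 6 h.

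With serine in the medium, FGFBP1 was lower under compound 16 at 24 h, and its arrays were uneven. They read 6.74, 6.67 and 5.72 under compound 16, against 7.15, 7.23 and 7.28 in DMSO. All 3 lay below the DMSO arrays, and replicate 95, at 5.72, lay near the compound 16 arrays without serine, whereas the other two lay nearer to DMSO. The SD was 0.57 under compound 16, against 0.06 in DMSO. The difference was -0.84 ± 0.16 (1.79-fold lower), the largest fall of all 18239 genes, and -0.51 without replicate 95, for which no rank was taken. The gene was noticed in the comparisons at 24 h in both media and at 6 h without serine. Its ranks there follow from that choice. Over all probe sets, replicate 95 did not stand apart from the other arrays of its group: the SD of its differences from their mean was 0.213, against 0.216 and 0.218 for replicates 93 and 94.

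At the earlier times with serine, no fall of FGFBP1 was seen under compound 16. At 6 h it read 7.56, 7.67 and 7.25 under compound 16, against 7.34, 7.41 and 7.47 in DMSO, and the difference was 0.08 ± 0.16 with overlapping arrays. At 1.5 h it read 8.24, 7.86 and 8.17 under compound 16, against 7.80 and 7.81 in the 2 DMSO arrays. The compound 16 arrays here lay above the DMSO arrays, with a difference of 0.29 ± 0.17. At 0 h it read 8.27, 8.14 and 7.79 against 7.93, 8.16 and 8.12, a difference of 0.00 ± 0.16.

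The compound 16 effect without serine minus that with serine was -1.12 ± 0.22 at 6 h and -1.28 ± 0.22 at 24 h. The intervals were -1.57 to -0.68 and -1.72 to -0.83 (95%, from the fit). They rest on 1 SD of 0.19 estimated over all groups, whereas compound 16 with serine at 24 h had an SD of 0.57. The 24 h interval may thus be too narrow, as the effect with serine was -0.51 without replicate 95. At 1.5 h and 0 h the same quantity was -0.33 ± 0.23 and -0.11 ± 0.22, with intervals of -0.80 to 0.14 and -0.55 to 0.34. As FGFBP1 was chosen for its compound 16 response, these differences between media are descriptions too.

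**Figure D2:**
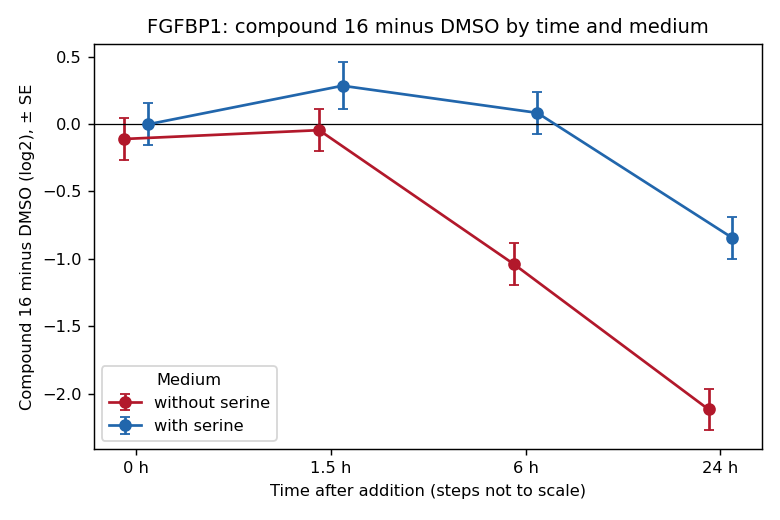
Compound 16 minus DMSO for FGFBP1 (log2 difference ± SE, y axis) at 0, 1.5, 6 and 24 h (x axis, steps not to scale) without serine (red) and with serine (blue). Without serine the difference is -1.04 at 6 h and -2.12 at 24 h; with serine it is 0.08 and -0.84.

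The change of medium itself is independent of the choice of FGFBP1, and it went with a higher signal. Cells kept 24 h in serine-free medium and taken at 0 h in DMSO read 8.03, 8.13 and 8.25, and those in medium with serine 7.93, 8.16 and 8.12, against 7.43, 7.58 and 7.39 before the change. Neither medium overlapped with the cells before it. FGFBP1 rose by 0.67 ± 0.16 without serine (1.59-fold, limma adjusted p = 0.00107) and by 0.60 ± 0.16 with serine (1.52-fold, limma adjusted p = 0.0046). These changes were common on the array: 22.7% of 49293 probe sets were called without serine (12.1% higher) and 16% with serine (8.42% higher), at a Benjamini-Hochberg adjusted p under 0.05. Both comparisons share the arrays before the change, and those arrays form a block of title numbers of their own, so block and medium cannot be told apart.

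Lack of serine went with no detectable change of FGFBP1 at 0 and 1.5 h, in DMSO or in the compound 16 arrays. At 0 h in DMSO the means were 8.14 ± 0.11 without and 8.07 ± 0.12 with serine (SD, n = 3 each), a difference of 0.07 with a 95% interval of -0.25 to 0.38 (limma adjusted p = 0.878). The arrays labelled compound 16 at 0 h, which had no time with it, gave 8.03 ± 0.05 and 8.07 ± 0.25 and a difference of -0.04, interval -0.36 to 0.27 (limma adjusted p = 0.945). At 1.5 h the difference was 0.10 in DMSO, interval -0.26 to 0.45 (limma adjusted p = 0.949), and -0.23 under compound 16, interval -0.55 to 0.08 (limma adjusted p = 0.628). Leaving out single arrays moved the DMSO value at 1.5 h between 0.04, without replicate 55, and 0.17, without replicate 54, both without serine, and neither passed the test. In these 4 comparisons 3.71%, 2.42%, 1.01% and 1.9% of probe sets were called. The sign at 0 h changed without replicate 13 of DMSO with serine (0.00) and, for the compound 16 arrays, without replicate 10 with serine (0.06).

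At 24 h, the arms without and with serine lay apart in opposite directions under compound 16 and in DMSO. In DMSO, serine-free cells read 7.33, 7.07 and 7.31 at 6 h, against 7.34, 7.41 and 7.47 with serine, a difference of -0.17 ± 0.16 with no overlap. At 24 h in DMSO they read 7.62, 7.50 and 7.66, against 7.15, 7.23 and 7.28 with serine, so FGFBP1 stood 0.37 ± 0.16 higher without serine. Under compound 16 the same contrast was -1.29 ± 0.16 at 6 h and -0.90 ± 0.16 at 24 h, and -1.23 at 24 h without replicate 95. These values share arrays with the compound 16 comparisons in which the gene was noticed, so they carry no test.

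Time in DMSO also went with a lower FGFBP1 signal. With serine, the 6 h arrays read 7.34, 7.41 and 7.47, against 7.93, 8.16 and 8.12 at 0 h. The groups did not overlap, and FGFBP1 fell by 0.66 ± 0.16 (limma adjusted p = 0.00351), where 10.5% of probe sets were called and 6.06% were called lower. From 0 h to 1.5 h the differences did not pass the test, at -0.26 ± 0.17 with serine (limma adjusted p = 0.489) and -0.24 ± 0.16 without (limma adjusted p = 0.383), with 3.52% and 9.6% of probe sets called. Title numbers run in blocks by time, so any difference between these blocks cannot be told apart from time. In the serine-free DMSO arm, 6 h minus 0 h was -0.90 ± 0.16 and 24 h minus 0 h was -0.54 ± 0.16, and in the DMSO arm with serine 24 h minus 0 h was -0.85 ± 0.16, all given without a test. At 6 h without serine, DMSO cells thus also lay below their 0 h level, and compound 16 cells lay lower still.

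Ordered by mean, the 17 groups spanned 2.66 on the log2 scale, the 38th widest span of 18239 genes. The lower end of this span is compound 16 without serine at 24 h, where the gene was noticed, so the rank partly follows from that choice. The 8 groups at 0 and 1.5 h formed the top of the order, at 8.14 to 7.81. They were followed by DMSO without serine at 24 h (7.59), compound 16 with serine at 6 h (7.49), the cells before the change of medium (7.47), DMSO with serine at 6 h (7.41), DMSO without serine at 6 h (7.24) and DMSO with serine at 24 h (7.22). The bottom was compound 16 with serine at 24 h (6.38), compound 16 without serine at 6 h (6.20) and compound 16 without serine at 24 h (5.47). Of the 16 pairs of neighbours in this order 12 had overlapping arrays and gaps smaller than the larger SD of the pair. The 4 gaps larger than that SD, with no overlap, lay below DMSO with serine at 1.5 h (0.21), below DMSO with serine at 6 h (0.17), below DMSO with serine at 24 h (0.84) and below compound 16 without serine at 6 h (0.72).

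Of the 12 measured genes of the other FGF binding proteins and the FGF ligands, 10 had a mean over all arrays of only 4.10 to 4.51. This lay below every array median and in the range of the markers of other cell types, so a fall of their transcripts would be hard to see. Only FGFBP3, with a mean of 6.41, and FGF2, with 7.57, had a mean above the array medians. FGFBP2, which lies beside FGFBP1 on chromosome 4, had signals of 3.99 to 4.73 and 3.77 to 4.44 in its 2 probe sets over all arrays, with compound 16 minus DMSO at -0.07 ± 0.13 and 0.21 ± 0.12 at 24 h without serine. FGFBP3 stood at 0.04 ± 0.16 in its dimmer and 0.00 ± 0.14 in its brighter probe set. Of the 12 genes 0 passed the test in compound 16 minus DMSO at 6 or 24 h in either medium, where few probe sets were called at all. Without serine 1.52% of probe sets were called at 6 h (0.878% higher, 0.639% lower) and 4.7% at 24 h (1.92% higher, 2.78% lower). With serine 0% were called at 6 h, where limma gave 2830 probe sets an unadjusted p under 0.05, and 0.755% at 24 h (0.483% higher, 0.272% lower). The list medians, which rest mostly on the 10 dim genes, were -0.01 at 6 h and -0.02 at 24 h without serine and 0.06 and -0.01 with serine, beside medians within 0.01 of 0 over all probe sets. FGF2, the ligand best known to be carried by FGFBP1, read 7.21 to 7.62 under compound 16 and 6.97 to 7.12 in DMSO at 24 h without serine, a difference of 0.39 ± 0.16 (limma adjusted p = 0.193).

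Among FGF receptors and heparan sulfate carriers, SULF2, which trims sulfate from heparan sulfate outside the cell, was the only one of 15 measured genes past the test. It rose by 0.42 ± 0.10 at 24 h without serine (limma adjusted p = 0.00645), with 8.36 to 8.43 under compound 16 and 7.89 to 8.03 in DMSO, and stood at -0.03 ± 0.10 with serine. The call was lost without the third DMSO array (limma adjusted p = 0.0515) and in a fit of the compared arrays alone (limma adjusted p = 0.0582). FGFR1, a main receptor of FGF2, stood at -0.09 ± 0.09, the syndecan SDC1 at -0.10 ± 0.07 and perlecan, HSPG2, at -0.20 ± 0.11, none past the test. Of the 15 genes 5 had a mean over all arrays of only 4.44 to 4.82, below every array median. A fall of these 5 would be hard to see. Few probe sets were called in any case, 4.7% at 24 h and 1.52% at 6 h without serine. The list medians at 24 h, which include the dim genes, were -0.04 without and -0.04 with serine.

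Few feedback genes of the FGF and ERK pathway passed the test, and those that did moved both ways. At 24 h without serine, PHLDA1, an ERK-induced gene, fell by 0.46 ± 0.06 (limma adjusted p = 2.32e-06), with 9.65 to 9.81 under compound 16 and 10.09 to 10.32 in DMSO. In a fit of the compared arrays alone this call was lost (limma adjusted p = 0.0719). SPRED2, an inhibitor of the RAS to RAF step, rose by 0.23 ± 0.07 (limma adjusted p = 0.0468), a call that was lost when any array of the comparison was left out. The SPRED2 call was also lost after quantile normalization (limma adjusted p = 0.0571) and in the fit of the compared arrays alone (limma adjusted p = 0.269). ETV5, a transcription factor induced by FGF, rose by 0.51 ± 0.07 at 6 h without serine (limma adjusted p = 1.52e-05), a call also lost in the fit of the compared arrays alone (limma adjusted p = 0.0644). DUSP6, the ERK phosphatase, stood at 0.37 ± 0.12 at 6 h and -0.15 ± 0.12 at 24 h, and SPRY4 at -0.25 ± 0.18 at 24 h, none past the test. Of the 16 genes 1 rose and 0 fell at 6 h and 1 rose and 1 fell at 24 h without serine, and 0 passed with serine at either time. The shares of all probe sets called were 1.52% at 6 h and 4.7% at 24 h without serine. With serine they were 0% and 0.755%, so no list could have passed at 6 h. The list medians were 0.09 at 6 h and -0.11 at 24 h without serine, beside -0.006 and -0.0003 over all probe sets. The list as a whole thus leaned lower at 24 h, which was not tested.

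Transcripts of factors reported to act on the FGFBP1 gene moved both ways. Whether these factors act on it in these cells was not tested. CEBPB, of the C/EBP family, rose by 0.84 ± 0.07 at 6 h (limma adjusted p = 2.65e-11) and by 0.35 ± 0.07 at 24 h without serine (limma adjusted p = 0.000513). Its signal at 6 h was 11.12 to 11.27 under compound 16 and 10.25 to 10.44 in DMSO. KLF5, an epithelial zinc finger factor, read 10.08 to 10.23 under compound 16 and 10.69 to 10.93 in DMSO at 24 h without serine. It fell by 0.64 ± 0.15 (limma adjusted p = 0.00432), beside -0.02 ± 0.15 with serine. The AP-1 members differed in sign: FOS fell by 0.68 ± 0.14 (limma adjusted p = 0.00132) and JUN rose by 0.51 ± 0.15 (limma adjusted p = 0.0396). The JUN call was lost without the second or the third compound 16 array and without the first or the second DMSO array. In the fit of the compared arrays alone, CEBPB at 6 h and KLF5 were still called, and CEBPB at 24 h, FOS and JUN were not (limma adjusted p = 0.117, 0.068 and 0.224). Of 11 measured factors 2 rose and 2 fell at 24 h, 1 rose and 0 fell at 6 h without serine, and 0 passed with serine. Over all probe sets 4.7% were called at 24 h and 1.52% at 6 h without serine. With serine the shares were 0.755% and 0%. The list median at 24 h without serine was 0.12.

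Of the EGF receptor and its ligands, EREG, which encodes epiregulin, rose by 0.74 ± 0.10 at 6 h (limma adjusted p = 9.83e-06) and by 0.38 ± 0.10 at 24 h without serine (limma adjusted p = 0.0225). NRG1, a ligand of the related ERBB3 and ERBB4 receptors, fell by 0.47 ± 0.08 at 24 h without serine (limma adjusted p = 0.00011), by 0.35 ± 0.08 at 24 h with serine (limma adjusted p = 0.0205) and by 0.32 ± 0.08 at 6 h without serine (limma adjusted p = 0.0269). EGF itself fell by 0.45 ± 0.13 at 24 h without serine (limma adjusted p = 0.0328), with a dim signal of 4.52 to 4.81 under compound 16 and 4.88 to 5.30 in DMSO. EGFR stood at -0.08 ± 0.13. Of 9 measured genes 1 rose and 2 fell at 24 h and 1 rose and 1 fell at 6 h without serine, and NRG1 alone passed with serine at 24 h. Over all probe sets 4.7% were called at 24 h and 1.52% at 6 h without serine, and 0.755% at 24 h with serine. Single arrays ended some of these calls. For EREG at 24 h these were the first compound 16 array and the first and the second DMSO arrays, and for EGF the first and the third compound 16 arrays and the second and the third DMSO arrays. For NRG1 they were every array at 6 h without serine but the first of compound 16, and at 24 h with serine the second and the third of each group. In the fit of the compared arrays alone, EREG at 6 h and NRG1 at 24 h without serine were still called, and the other calls of this list were lost (limma adjusted p = 0.177 to 0.521). With a trended robust prior the EGF call was lost too (limma adjusted p = 0.0538). The list medians at 24 h were -0.08 without and 0.09 with serine.

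**Figure D3:**
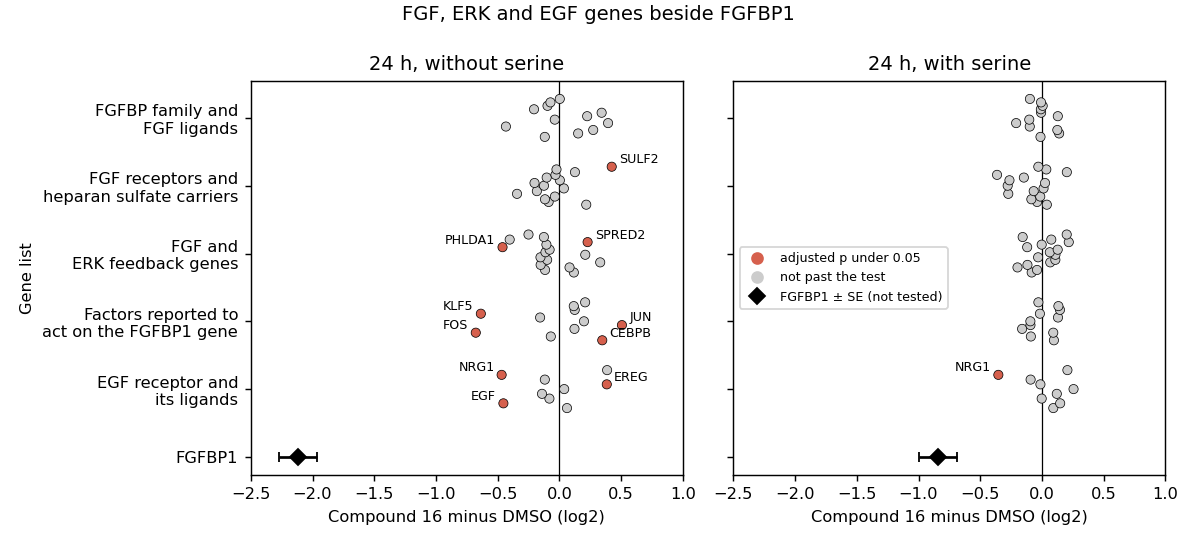
Compound 16 minus DMSO at 24 h (log2 difference, x axis) for each measured gene of 5 lists (rows), without serine on the left and with serine on the right; red points passed the test and are named, grey points did not, and the black diamond is FGFBP1 ± SE. FGFBP1 lies at -2.12 and -0.84, while the listed genes past the test lie between -0.68 and 0.51.

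The genes whose pattern was most like that of FGFBP1 were found by Pearson's r over the 17 group means, among 8390 genes whose group means spanned at least 0.5 on the log2 scale. The points share times, media and arrays, so r is a description. STARD4, a carrier of cholesterol between membranes, came first with r = 0.93, and it stayed first by Spearman's rho (0.96) and without the groups at 24 h (0.95). FASN, the fatty acid synthase, had r = 0.92, NSDHL, a sterol dehydrogenase of cholesterol synthesis, 0.91, MICA, a stress ligand of the NKG2D receptor, 0.91, and MVK, the mevalonate kinase, 0.90. ATAT1, a tubulin acetyltransferase, had 0.89, the antisense transcript SLC67A1-AS 0.89 and HSPB1, a small heat shock protein, 0.88. Of these 8 genes 3 were among the top 8 by Spearman's rho and 4 without the groups at 24 h. For MICA rho was only 0.58.

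Their changes ran alongside those of FGFBP1 but were smaller. The spans were 0.61 for HSPB1 to 1.58 for MVK, and 7 of the 8 had their lowest mean under compound 16 without serine at 24 h, STARD4 at 6 h. These genes were picked for a high r with FGFBP1, so the shared lowest groups largely follow from that choice. At 24 h, MVK averaged 6.17 under compound 16 and 7.15 in DMSO without serine, and 6.90 and 7.30 with serine. FASN averaged 7.57 and 8.09 without serine and 7.79 and 8.10 with serine. In replicate 95 of compound 16 with serine, where FGFBP1 was low, MVK read 6.83 beside 6.92 and 6.96 in the other arrays of the group, FASN 7.77 beside 7.97 and 7.64, and STARD4 6.02 beside 6.02 and 6.41. None of these 3 genes set that array as far apart as FGFBP1 did.

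The most opposite patterns were those of SLC25A36, a mitochondrial carrier of pyrimidine nucleotides (r = -0.87), LY96, the MD-2 partner of the TLR4 receptor (-0.85), SLC7A11, the cystine-glutamate exchanger (-0.83), and DNAJB9, an endoplasmic reticulum chaperone (-0.83). Their means were highest under compound 16 without serine, at 24 h for SLC25A36 and LY96 and at 6 h for SLC7A11 and DNAJB9. As they were picked for a low r with FGFBP1, this too largely follows from the choice. None of the 4 stayed among the lowest 4 by Spearman's rho or without the groups at 24 h. In replicate 95 of compound 16 with serine, LY96 read 4.48, beside 5.08 and 4.80 in the other arrays and 4.42 to 4.48 in DMSO. SLC25A36 read 9.77 there beside 9.705 and 9.81, SLC7A11 12.25 beside 12.15 and 12.2, and DNAJB9 10.32 beside 10.14 and 10.35.

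**Figure D4:**
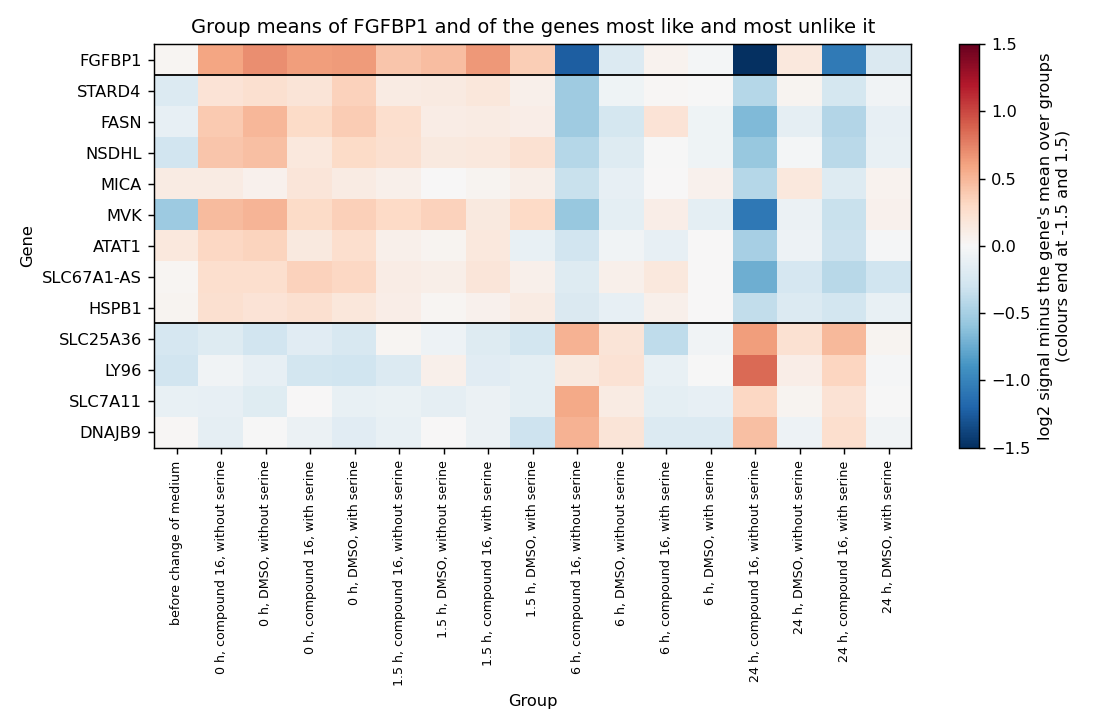
Group means of FGFBP1 (top row), the 8 genes most like it (middle) and the 4 most unlike it (bottom) in the 17 groups (columns, by time), as log2 signal minus the gene's mean over groups; red is higher and blue lower. In the column of compound 16 without serine at 24 h, the FGFBP1 cell is the darkest blue and the SLC25A36 and LY96 cells are red.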

How the data were processed

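Biotin-labelled total RNA of A549 cells was hybridised to 50 arrays. The authors deposited 1 log2 signal per probe set and array. The submitters' processing notes name RMA, a method that removes background, equalizes arrays and combines probes, and also limma, without version or setting. No detection values were used. Of 49386 probe sets, 93 controls were left out. The platform annotation, which can be old, gave 45253 probe sets 1 symbol, 1327 several and 2713 none; listed genes were taken by the probe set of highest mean.

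All arrays entered 1 fit of 17 group means (limma 3.58.1, R 4.3.3, eBayes, 33 residual and 4.31 prior degrees of freedom), with Benjamini-Hochberg adjustment over 49293 probe sets within each comparison and a threshold of 0.05. The number of arrays limits the precision. There were 9 tested comparisons of FGFBP1. The fit was tested on simulated data.

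The gene, the 5 lists (66 genes, 63 measured; the others not analysed here), the motifs and the tests were chosen with earlier results of these data known. Named genes were the listed genes past the test at 24 h without serine (up to 4 a list) with up to 3 others each, the 8 most like and 4 most unlike patterns, and the 5 largest falls. Alternatives were quantile normalization, centring on array medians, leaving out probe sets under the 40th percentile of mean signal, 1 probe set per gene, array weights, a trended robust prior, only the arrays of a comparison, and leaving out each array.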

Additional observations from a re-analysis of the deposited data

How the results depend on the processing

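FGFBP1 kept its sign and its side of the threshold in all 9 tested comparisons under the 7 settings other than leaving out arrays. Its 8 compound 16 minus DMSO values and 4 later serine differences moved by less than the array SD, with -2.12 to -2.10 at 24 h without serine and -0.88 to -0.84 with serine. No paired analysis was possible because the numbers in the titles run through the series and no groups share one.

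Leaving out each array in turn gave 0.56 to 0.67 for the change of medium with serine, 0.61 to 0.73 without, and -0.73 to -0.62 for 6 h against 0 h in DMSO with serine, all still called. Serine lack at 0 h ranged from -0.00317 to 0.12 in DMSO and -0.18 to 0.0618 in the compound 16 arrays, with adjusted p never under 0.726. Compound 16 minus DMSO ranged from -2.21 to -2.05 at 24 h and -1.12 to -0.98 at 6 h without serine, and from -1.03 to -0.51 at 24 h with serine, the last without replicate 95.

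Among 63 listed genes, 3 were called higher and 1 lower at 6 h without serine, 5 higher and 5 lower at 24 h, and 0 higher and 1 lower at 24 h with serine. Among all probe sets 1.52%, 4.7% and 0.755% were called in these 3 comparisons. At 6 h 5 rose with dim probe sets left out, with 1 probe set per gene or with array weights. In a fit of the compared arrays alone, 0 fell at 6 h, 0 rose and 2 fell at 24 h without serine, and 0 fell at 24 h with serine. Without single arrays, 3 to 4 rose and 0 to 1 fell at 6 h, 2 to 3 rose and 4 to 5 fell at 24 h without serine, and 0 to 1 fell with serine. The cause of these shifts was not tested. Signals near the array median limit what can be said of FGFBP1 at 24 h under compound 16.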

Other observations

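The 3 nearest protein-coding genes on each side of FGFBP1 in the RefSeq order were looked at after the data had been seen, to place its fall among its neighbours. On one side lie CD38, BST1 and FAM200B, and on the other FGFBP2, PROM1 and TAPT1. None of the 6 passed the test in compound 16 minus DMSO at 24 h in either medium, where few probe sets were called. The shares were 4.7% without and 0.755% with serine. CD38, an NAD-consuming ectoenzyme and the closest of them on its side, came nearest, at -0.61 ± 0.19 without serine (limma adjusted p = 0.0609) and -0.30 ± 0.19 with serine (limma adjusted p = 0.654). BST1, a related ectoenzyme, stood at -0.27 ± 0.16 in both media. TAPT1 was the only neighbour called at 6 h without serine, where it rose by 0.33 ± 0.08 (limma adjusted p = 0.0253) and 1.52% of probe sets were called. In DMSO with serine, CD38 fell by 0.68 ± 0.19 at 6 h against 0 h (limma adjusted p = 0.0165), beside a difference of -0.66 ± 0.16 for FGFBP1 (limma adjusted p = 0.00351). There 10.5% of probe sets were called, 6.06% of them all being called lower. After the change of medium, CD38 stood at -0.07 ± 0.19 without and 0.19 ± 0.19 with serine, where FGFBP1 rose.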
